A study of Mus musculus with 7 samples.

Results

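The maternal RNA clearance machinery was followed here through 7 genes, chosen by symbol from a table of 26586 genes: Btg4, Cnot6l, Cnot7, Zfp36l2, Pabpn1l, Ythdf2 and Cpeb1. All 7 symbols were found in the table, and all 7 passed the filter of a mean of 1 or more CPM (counts per 1000000 counts of the library), as did 11810 genes in all. Messenger RNA was measured in 7 single C57BL/6 mouse embryos, labelled as morulae and taken from the oviduct or uterus at 3 days post coitum. The cross is labelled L13a-/+ and the mothers L13a(+/-), that is with 1 mutant and 1 normal copy of the gene of the ribosomal protein L13a, and none was treated. The labels name neither the genotype of any embryo nor its sex or litter, nor the part of L13a that is mutated. The 7 embryos therefore formed 1 group, numbered 1 to 7, and no groups were compared. Separate litters are not stated, so p-values reflect only how far these samples vary, in part perhaps for technical reasons.

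An oocyte stores messenger RNA that must be removed before the embryo's own genome can direct development. Removal starts with the poly(A) tail: BTG4 links the CCR4-NOT deadenylase complex to the translation machinery on maternal messages, and the catalytic subunits CNOT6L and CNOT7 shorten the tail. ZFP36L2 binds AU-rich elements, YTHDF2 binds N6-methyladenosine (m6A), and PABPN1L, a poly(A)-binding protein of the oocyte, works with BTG4. CPEB1 binds the cytoplasmic polyadenylation element in 3′ ends and controls tail length and translation of dormant messages during oocyte maturation.

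Because these proteins act at the 3′ ends of messages, and because the libraries were primed on the poly(A) tail, the annotated 3′ ends of the members themselves were searched. The last 150 bases of 1 coding transcript per gene (GENCODE release M21, GRCm38) were read on the RNA strand. The cytoplasmic polyadenylation element was searched as TTTTAT or TTTTAAT, and the cleavage signal as AATAAA or ATTAAA. The element was found in 3 of the 7 members, Btg4, Cnot7 and Ythdf2, and in 24.5% of 10074 genes that passed the filter and had such a window. The signal was found in 6 of the 7 members, all but Btg4, and in 82.3% of those genes. The 30-base windows below, 5′ to 3′, show the element or the signal in capitals for the enzymes, the adaptor and the reader.
Btg4, chr9:51119797-51119826, plus strand: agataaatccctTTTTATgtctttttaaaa
Cnot7, chr8:40493036-40493065, minus strand: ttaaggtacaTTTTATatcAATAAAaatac
Cnot6l, chr5:96070340-96070369, minus strand: ttccctgtaggcAATAAAtggccattttgc
Ythdf2, chr4:132184996-132185025, minus strand: ctctgccaaactTTTTATtataaaatatat
In the Cnot7 window the element stands 3 bases before the signal, at the annotated end of the transcript. The signal of Ythdf2 lies outside the window shown, and Btg4 has a further copy of the element upstream of its window. A match describes these letters only, and annotated ends may differ from those used in the embryo.

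Libraries held from 139619 counts (embryo 6) to 33123742 (embryo 4), with 1749 to 12064 genes counted. A count of 0 allows up to 3 counts, which equals 0.0906 CPM in embryo 4, 0.175 in embryo 7, 0.182 in embryo 2, 1.09 in embryo 5, 2.62 in embryo 1, 4.13 in embryo 3 and 21.5 in embryo 6. All intervals and limits cover counting error only, since amplified copies of 1 molecule were not told apart. In material from whole embryos, fewer cells of a type and less RNA per cell cannot be told apart.

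Detection of the members did not follow depth. All 7 members were counted in embryos 1 and 7, where 41.7% and 69.5% of the 11810 genes were counted. In embryo 2, 6 members were counted, against 72.1% of genes. In embryo 3, 4 were counted, against 29% of genes. In embryo 4, the deepest library, 4 members were counted, against 84% of genes. Embryo 5 had 1 member, against 27.7% of genes, and embryo 6 had 2, against 14.8%. Scaled to the lowest library total, 6, 4, 4, 3, 1, 2 and 5 members would be expected at 3 or more counts in embryos 1 to 7. The same was not computed for all genes, so whether these scaled counts differ from genes in general cannot be read from them.

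**Figure D1:**
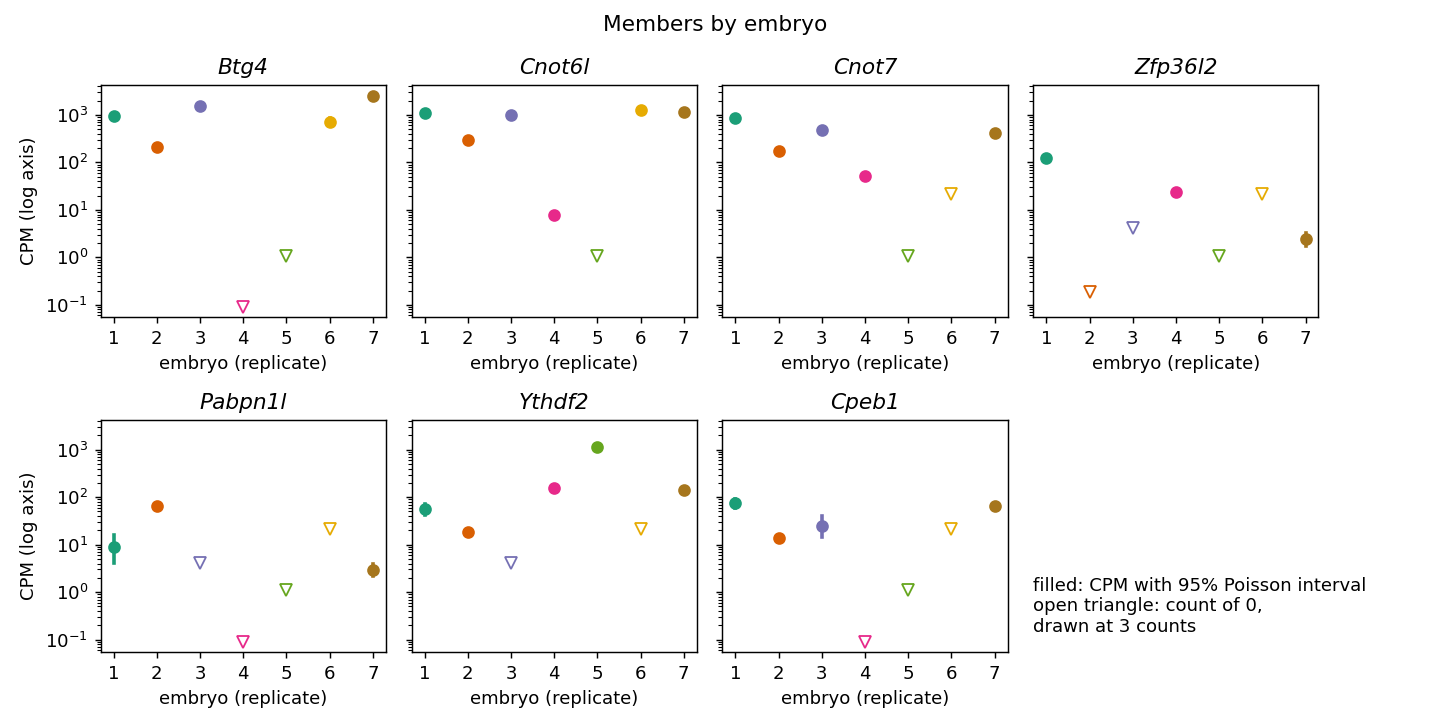
Level of each member (CPM, log axis) in embryos 1 to 7. Filled points are CPM with 95% Poisson intervals, and open triangles mark counts of 0, drawn at the 3 counts that a 0 allows. Btg4 and Cnot6l stand high in embryos 1, 3, 6 and 7 and are at 0 or low in embryos 4 and 5, while Ythdf2 peaks in embryo 5.

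Btg4, the deadenylation adaptor, lies on chromosome 9 of GRCm38 from 51060901 to 51119875 (ENSMUSG00000032056.10). Its counts were 1086, 3475, 1103, 0, 0, 101 and 43579 in embryos 1 to 7. These corresponded to 949, 211, 1519.9, 0, 0, 723 and 2545 CPM. In 5 embryos Btg4 was among the more abundant genes, ahead of 91.7% to 99.8% of the genes that passed the filter, and in the other 2 it was not counted. In embryo 4 the 0 allows up to 0.0906 CPM, so the gap to every embryo in which it was counted was far beyond counting error. Btg4 overlaps Layn, 4833427G06Rik, Mir34b and Mir34c on the other strand, all at 0 in the 7 libraries.

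Cnot6l, a catalytic subunit of CCR4-NOT on chromosome 5 from 96070333 to 96164171, was the only member counted in 6 embryos, and in 4 of them it stood above 1000 CPM. Its values were 1103, 303, 1015.5, 7.88, 0, 1275 and 1158 CPM, from counts of 1262, 4978, 737, 261, 0, 178 and 19834. The 95% intervals of embryos 1 (1043 to 1166 CPM), 6 (1094.5 to 1477 CPM) and 7 (1142 to 1175 CPM) overlapped, from libraries that differed widely in depth. Embryo 2 lay below these intervals, at 294 to 311 CPM, and embryo 4 lower still, at 6.95 to 8.90 CPM.

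Cnot7, the partner deadenylase, lies on chromosome 8 from 40492540 to 40515847. It stood at 851.5, 172, 481, 50.9, 0, 0 and 407.5 CPM, from counts of 974, 2836, 349, 1685, 0, 0 and 6978. Cnot7 thus shared the 0 of embryo 5 with Btg4 and Cnot6l, and like Cnot6l but not Btg4 it was counted in embryo 4. Unlike both, it was not counted in embryo 6, where 3 counts equal 21.5 CPM. It overlaps Zdhhc2 and Vps37a on the other strand. Vps37a had 14, 332, 179, 1673, 110, 0 and 1771 counts. The sources used here do not give whether counting used strand, so reads of the shared bases cannot be told apart.

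Pabpn1l, the oocyte poly(A)-binding protein (chromosome 8, 122619471 to 122622739), was a low transcript. Its counts were 10, 1084, 0, 0, 0, 0 and 51, or 8.74, 65.9, 0, 0, 0, 0 and 2.98 CPM. Embryo 2 held 84.9% of its CPM summed over embryos. The gene overlaps Mir6396 on its own strand and Gm20388 on the other, neither of which has a value here. Cpeb1, the polyadenylation regulator (chromosome 7, 81347026 to 81455465), had 85, 231, 18, 0, 0, 0 and 1142 counts, or 74.3, 14.0, 24.8, 0, 0, 0 and 66.7 CPM. Embryos 1 and 7 were highest and their intervals (59.4 to 91.9 CPM and 62.9 to 70.7 CPM) overlapped. Cpeb1 and Pabpn1l were both at 0 in embryos 4, 5 and 6.

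Zfp36l2, the binder of AU-rich elements (chromosome 17, 84183931 to 84187947), was counted in 3 embryos. It had 142, 0, 0, 794, 0, 0 and 42 counts, or 124, 0, 0, 23.97, 0, 0 and 2.45 CPM. Embryo 1 was highest, and in embryo 2, one of the deeper libraries, its 0 allows up to 0.182 CPM. An antisense gene, AC132455.1, overlaps it and has no value here.

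Ythdf2, the m6A reader (chromosome 4, 132184912 to 132212303), was counted in embryos 4 and 5, where Btg4 was not. It had no count in embryos 3 and 6, where Btg4 was counted. This contrast was singled out after its values were seen, and the share of all genes that show it was not computed. Its counts were 64, 309, 0, 5249, 3137, 0 and 2420, or 55.95, 18.8, 0, 158.5, 1135, 0 and 141 CPM in embryos 1 to 7. Embryo 5, where the other 6 members had no count, held its highest level (95% interval 1095 to 1175 CPM), ahead of 98.6% of genes. Embryo 4, where Btg4 was not counted, was next. Embryos 3 and 6, in which Btg4 and Cnot6l were abundant, had no count of Ythdf2. Only 29% and 14.8% of genes were counted in these embryos. In embryo 6 a 0 allows up to 21.5 CPM, above the 18.8 CPM of embryo 2. Embryos 1, 2 and 7 had counts of both Ythdf2 and Btg4, and in embryo 7 Btg4 was at its highest, 2545 CPM, beside Ythdf2 at 141 CPM.

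Btg4, Pabpn1l and Cpeb1 were at 0 in both embryo 4 and embryo 5, a pattern singled out after its values were seen. Over the 11810 genes 14.8% had this pattern, and 16% were at 0 in embryo 4. The highest CPM fell in embryo 1 for Cnot7, Zfp36l2 and Cpeb1 (10.9% of genes peaked there), in embryo 2 for Pabpn1l (18.6%), in embryo 5 for Ythdf2 (7.1%), in embryo 6 for Cnot6l (5.77%) and in embryo 7 for Btg4 (19.2%). None peaked in embryo 3 or embryo 4, where 8.92% and 29.6% of genes did. The members therefore did not peak in 1 common embryo.

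On the log2 CPM scale, with a prior count of 2 and TMM scaling, the SD between embryos was large for every member. Means were 6.31 ± 5.82 for Btg4, 7.07 ± 4.67 for Cnot6l, 5.25 ± 5.12 for Cnot7 and 4.51 ± 4.84 for Ythdf2 (SD, n = 7). Cpeb1 stood at 2.09 ± 3.96, Zfp36l2 at 0.74 ± 3.84 and Pabpn1l at 0.42 ± 3.39 (SD, n = 7). The median SD was 4.67 over the members and 3.63 over all 11810 genes, and the SD of Btg4 exceeded that of 99.6% of genes. Large as these values are, no member passed the edgeR quasi-likelihood test of spread, which asks whether a gene varies more than genes of like abundance. That test called 0 of 11810 genes (0%). Before adjustment 67 genes were under 0.05, and by DESeq2 there were 0 outliers in dispersion. The adjusted p of the edgeR test was 0.869 for each member, and unadjusted values ran from 0.223 for Btg4 to 0.633 for Cpeb1. With limma on the authors' log2 table, the unadjusted p was 0.0132 for Btg4 and 0.0272 for Cnot6l, and the adjusted p 0.880 for both. The common dispersion was 9.03, and a p that misses the threshold does not show that a member varied no more than other genes.

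Set on a scale per kb of exon, the order of mean levels was Btg4 (4.95 log2 CPM per kb), Cnot6l (3.71), Cnot7 (2.71), Ythdf2 (2.32), Pabpn1l (0.17), Cpeb1 (0.02) and Zfp36l2 (-1.08). No pair of neighbours in this order differed by more than the SD of their within-embryo difference. Btg4 was 1.25 ± 2.20 above Cnot6l on this scale (SD, n = 7), higher in embryos 1, 2, 3, 6 and 7 and lower in embryo 4, with neither counted in embryo 5. Cnot7 was 0.40 ± 7.03 above Ythdf2 (SD, n = 7), higher in embryos 1, 2, 3 and 7 and lower in embryos 4 and 5, with neither counted in embryo 6. Within embryos, Btg4 had the highest CPM per kb of the members in embryos 1, 2, 3, 6 and 7, with 82.6 to 996 CPM per kb. Ythdf2 had the highest in embryos 4 and 5, with 34.7 and 248 CPM per kb.

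Each member has paralogues of related function, and each was set against its paralogues in the same embryo, so no scaling factor between libraries enters the ratio. Where only the member or only its paralogues had a count, the log2 ratio still depends on library depth. This is because a fixed amount was added to each count. Shares of family counts are given with exact Clopper-Pearson 95% intervals and are not corrected for exon length. Per kb the leading side changed in embryo 2 for Btg4 (39.7% to 53.8%) and Cnot7 (60.8% to 41.3%). It also changed in embryo 7 for Cpeb1 (45.4% to 59.7%). Btg4 made up 51.6%, 39.7%, 77.5%, 0%, 0%, 90.2% and 95.7% of the counts of Btg1, Btg2, Btg3, Tob1, Tob2 and itself in embryos 1 to 7. In embryo 4 the family had 3952 other counts and the 0 of Btg4 allows a share of up to 0.0759%. Btg1, an antiproliferative gene, led the paralogues there, at 87.2 CPM, and Tob2 led them in embryo 1, at 1018 counts.

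The deadenylase pairs also changed sides between embryos. Cnot6l made up 94.6% (93.3 to 95.8), 82.4% (81.5 to 83.4) and 77.5% (77.0 to 78.0) of the counts of Cnot6l and Cnot6 in embryos 1, 2 and 7, and all counts in embryos 3 and 6. In embryo 4 the share was 10.3% (9.17 to 11.6), where Cnot6 had 2266 counts and Cnot6l 261. Neither had a count in embryo 5. Cnot7 took 99.9%, 60.8%, 36.2%, 29.3% and 75.2% of the counts of Cnot7 and Cnot8 in embryos 1, 2, 3, 4 and 7. Cnot8 had 1 count in embryo 1 and 4059 in embryo 4.

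Wide shifts were also seen for the reader, Cpeb1 and Zfp36l2, while Pabpn1l shifted in share but did not change sides. Ythdf2 made up 99.7% (99.5 to 99.9) of the counts of Ythdf1, Ythdf2 and Ythdf3 in embryo 5 and 63.3% (62.2 to 64.3) in embryo 4. In embryo 2 it was 3.90% (3.49 to 4.35), where Ythdf1 had 4610 counts and Ythdf3 2999, and in embryo 3 it was 0%, which allows up to 0.865%. Cpeb1 ran from 0% in embryos 4, 5 and 6 to 97.7% (91.9 to 99.7) in embryo 1 of the counts of Cpeb1, Cpeb2, Cpeb3 and Cpeb4, and Cpeb2 was the paralogue with counts in most embryos, 6 of 7. Set against Zfp36, Zfp36l1 and Zfp36l3, Zfp36l2 held all 142 family counts in embryo 1 and none of 651 in embryo 2, which were all of Zfp36l1. Against Pabpn1, a nuclear poly(A)-binding protein counted in 6 of 7 embryos, Pabpn1l was the minor partner in the 6 with a count of either. The share of Pabpn1l was at most 15.8% (15.0 to 16.7) of the counts, in embryo 2, or 32.4% per kb of exon. In embryo 4 it was 0% beside 9256 counts of Pabpn1, which allows up to 0.0324%.

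**Figure D2:**
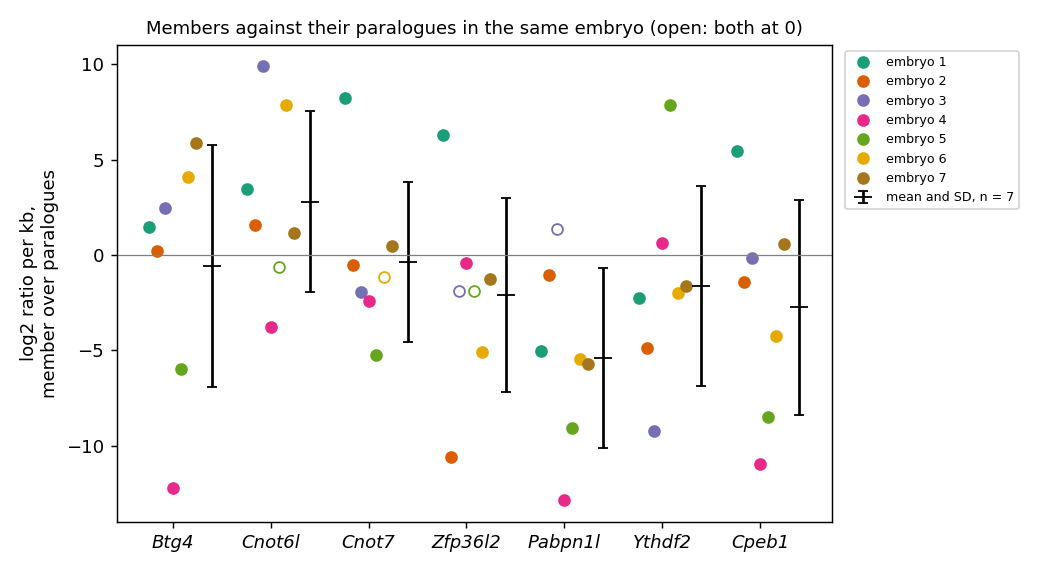
Log2 ratio of each member to the sum of its paralogues, per kb of exon with 0.5 added to each count, in embryos 1 to 7. Points are embryos, open where neither had a count, and bars are mean and SD (n = 7). Pabpn1l lies below 0 in every embryo with a count, while the other members lie on both sides.

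Per kb, none of the 7 comparisons passed after adjustment over the 7 (Benjamini-Hochberg), with two-sided exact sign-flip permutation tests over embryos. The smallest p that 7 embryos allow is 0.0156, which becomes 0.109 after adjustment unless at least 3 comparisons reach it together. The adjusted outcome was therefore set largely by the number of embryos and says little about the size of any ratio. Pabpn1l was lower than Pabpn1 in 6 of 6 embryos with a count, with a mean log2 ratio of -5.41 ± 4.71 (SD, n = 7; exact p 0.0469, adjusted 0.328). The n includes embryo 3, where neither gene was counted. The ratio of 1.35 there comes from the added 0.5 and the lengths alone. In embryos 4, 5 and 6 the ratio rests on a 0 of Pabpn1l. It was -12.83, -9.07 and -5.45 in these embryos, nearer to equality the shallower the library, beside Pabpn1 at 279, 247 and 394 CPM. Means, SDs and tests that include such embryos therefore depend in part on depth. Over the 6 embryos with a count, an alternative chosen after seeing the data, the mean was -6.53 ± 4.0 (SD, n = 6; exact p 0.0312, adjusted 0.219). Cnot6l was higher than Cnot6 in 5 of 6 embryos with a count, at 2.79 ± 4.75 (SD, n = 7; exact p 0.188, adjusted 0.519). Btg4 was higher than its paralogues in 5 of 7, at -0.58 ± 6.34 (SD, n = 7; exact p 0.859, adjusted 0.859). Its mean and its count of embryos thus pointed opposite ways, and without embryo 4 the mean was 1.36. The other 4 means ran from -2.75 for Cpeb1 to -0.37 for Cnot7, with adjusted exact p from 0.519 to 0.859.

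The patterns of the members over the 7 embryos were compared as the root mean square (RMS) difference of log2 CPM, each gene centred on its own mean. Libraries and depth are shared by all genes, so this is a description. Btg4 and Cnot6l were the nearest pair, at 2.04, with 36 genes nearer to Btg4 and 103 nearer to Cnot6l. Cnot7 and Cpeb1 followed at 2.59, with 476 genes nearer to Cnot7 and 487 nearer to Cpeb1. Cpeb1 and Pabpn1l stood at 2.81, with 715 genes nearer to Cpeb1 and 1504 nearer to Pabpn1l. Ythdf2 and Btg4 were the farthest pair, at 8.83, against a median over all genes of 6.66 for Btg4 and 4.65 for Ythdf2. Zfp36l2 stood at 4.30 or more from every other member, against its own median of 4.22 over all genes.

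**Figure D3:**
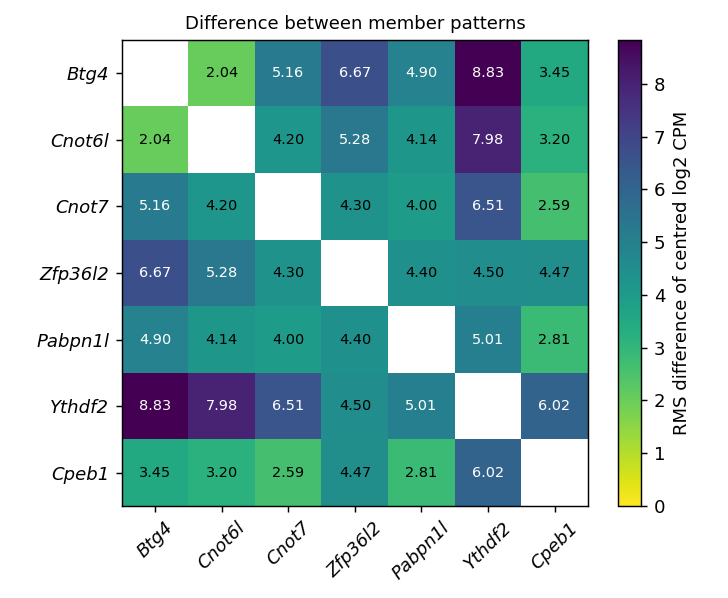
RMS difference between the centred log2 CPM patterns of each pair of members over the 7 embryos (log2 units, lower is more alike). Btg4 and Cnot6l are nearest (2.04), and Ythdf2 is farthest from Btg4 (8.83).

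The genes nearest to each member by this measure, over 7 embryos, were named by rule. Nearest to Btg4 were E330034G19Rik (RMS 0.49), the oocyte homeobox gene Obox5 (0.75) and the oocyte growth factor gene Bmp15 (0.84). Obox5 stood at 1505, 643.5, 4365, 0, 0, 602 and 2099 CPM, so it too had no count in embryos 4 and 5. Nearest to Cnot6l were Spin1 (0.49), a chromatin reader, Angel2 (0.86), a relative of the CCR4 deadenylases, and 2010107G23Rik (0.86). Nearest to Cnot7 were Slain2 (0.47), Foxj3 (0.52) and Odf2 (0.53), to Cpeb1 Adarb2 (0.52), Mpdz (0.66) and Zbtb33 (0.70), and to Zfp36l2 Foxo3 (0.26), Gnpat (0.35) and Ncstn (0.41). Nearest to Pabpn1l were Sox4 (0.64), Slc14a1 (0.77) and Col3a1 (0.80). Nearest to Ythdf2 were the mitochondrial ribosomal gene Mrps15 (0.80), the translation initiation gene Eif3b (0.90) and Pkig (0.94). Eif3b stood at 32.4, 39.3, 0, 445, 569, 0 and 80.0 CPM, highest in embryos 4 and 5 like Ythdf2.

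The rest of the RNA decay pathway was read from 10 lists with 124 genes, of which 119 passed the filter. None of the 119 passed the test of spread, which called 0 of all 11810 genes (0%). That test found no raised spread in simulated data at the dispersion of these libraries, so its outcome says little about the lists. The median SD of the 119 was 3.98 against 3.63 over all genes. In embryos 1 to 7, 75, 106, 55, 116, 47, 39 and 94 of the 119 were counted. These are 63.0%, 89.1%, 46.2%, 97.5%, 39.5%, 32.8% and 79.0% of the lists, beside 41.7%, 72.1%, 29%, 84%, 27.7%, 14.8% and 69.5% of all genes that passed the filter. In embryo 4 all 9 other CCR4-NOT subunits, all 16 exosome genes and all 18 genes of the m6A pathway were counted, while Btg4 was not. Embryo 5, with 1 member counted, had 6 of the 9 other CCR4-NOT subunits and 5 of 16 exosome genes. Embryo 6 had 2 of 9 and 4 of 16.

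Within these lists some genes of smallest SD were counted in every embryo, over ranges that were still wide, and others came and went. Wtap, a subunit of the m6A methyltransferase complex, was counted in all 7 embryos at 54.2 to 566 CPM (SD of log2 CPM 1.20). Ybx1, a cold-shock RNA-binding protein, stood at 118 to 988 CPM (SD 1.20), and Pabpc1, the cytoplasmic poly(A)-binding protein, at 26.2 to 764 CPM (SD 2.06). Nocturnin, a deadenylase-family gene listed as Ccrn4l, also had counts in all 7, at 13.4 to 417.5 CPM (SD 1.52). At the other end, Dazl, a germ-cell RNA-binding protein, stood at 161, 0.182, 1907, 0, 0, 0 and 368 CPM (SD 5.78). Angel2 stood at 1057, 116, 2888, 7.76, 0, 2170 and 763 CPM (SD 4.82), with embryos 2, 4 and 5 its lowest, as for Cnot6l. Lsm4, of the decapping LSM ring, had 480.0 CPM in embryo 4 and counts in only 2 others, embryos 1 and 2, and Aurka, a kinase upstream of CPEB1, had 582 CPM in embryo 4 and none in embryos 3 and 6.

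Other genes of the lists with the largest or smallest SD were as follows. Cnot3, a scaffold subunit, ranged from 0 in embryo 6 to 85.8 CPM in embryo 2. Btg2 reached 183 CPM in embryo 3 and Tob1 9.72 CPM in embryo 4. Papd7, a noncanonical poly(A) polymerase, ranged from 0 in embryo 5 to 885 CPM in embryo 7, and Zcchc6, a terminal uridylyltransferase, reached 21.6 CPM in embryo 4. Paip2, a repressor of poly(A)-binding protein, was counted in 4 embryos and peaked at 865 CPM in embryo 5. Exosc5 peaked at 230.0 CPM, Dis3l at 81.4 CPM and Patl2 at 7.17 CPM, all in embryo 2, Ythdc1 at 292 CPM in embryo 1, and Cpeb4 at 93.1 CPM in embryo 6.

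Markers of the oocyte, the embryo and the mother's tract are given beside the members, and their part in these levels was not tested. The 18 oocyte transcripts summed to 11535.5, 6153, 9776, 56.4, 243, 6861.5 and 11786 CPM in embryos 1 to 7, with 14, 17, 11, 11, 5, 8 and 18 of them counted. The sum was thus lowest in embryos 4 and 5, where Btg4 was not counted. Tcl1, the most abundant, was counted in all 7 embryos. The tract sum, given below, was also lowest in embryos 4 and 5, at 58.6 and 1.81 CPM. The lineage sum was not: it was highest in embryo 4 and lowest in embryo 5. The 16 embryo lineage transcripts summed to 1419, 867, 1230.5, 6725, 762, 4319 and 1266.5 CPM, with 5, 12, 7, 16, 3, 2 and 9 counted. In embryo 6 the sum came from Dab2 (3065.5 CPM) and Yap1 (1253 CPM) alone. Yap1 made up 894 CPM of the sum in embryo 1 and 757 CPM in embryo 7, so these sums can rest on few genes. Cdx2 and Nanog, defining genes of trophectoderm and epiblast, were counted in embryo 4 alone and were at 0 in the other 6, all labelled as morulae. Embryo 4 was the deepest library, with 84% of genes counted, and the share of genes counted there alone was not computed. Of the 16 lineage transcripts, 11 peaked in embryo 4, where 29.6% of genes did. The others peaked in embryos 3, 5 and 6. Dab2 and Yap1 peaked in embryo 6, and Yap1 stood at 68.1 CPM in embryo 4. Pou5f1, a pluripotency gene, was counted in embryos 2, 4 and 7. Embryo 5, where Ythdf2 peaked, had the lowest lineage sum, and embryo 4, where the members' sum was lowest, had the highest lineage sum and the lowest oocyte sum.

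**Figure D4:**
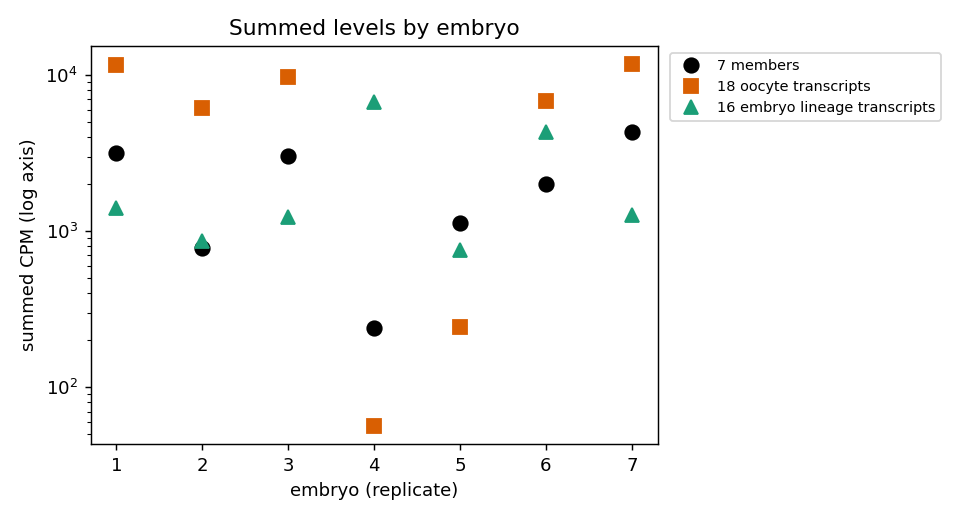
Summed CPM (log axis) of the 7 members, of 18 oocyte transcripts and of 16 embryo lineage transcripts in embryos 1 to 7. The members summed to 3167, 785, 3041, 241, 1135, 1998 and 4325 CPM, and in embryo 5 that sum was Ythdf2 alone.

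Of 12 oviduct and uterine epithelium markers, 5, 10, 1, 3, 1, 4 and 8 were counted, with sums of 1154, 1845, 152, 58.6, 1.81, 6288.5 and 254 CPM. This sum was lowest in embryos 4 and 5, where Btg4 was not counted, and highest in embryo 6. Where the members' sum was high, the tract sum was low in embryos 3 and 7 but 1154 CPM in embryo 1. Embryo 1, with Btg4 at 949 CPM, had the highest Ovgp1, at 627 CPM. Lcn2, the leading marker, was at 0 in embryos 3 and 4, and Ovgp1 at 0 in embryos 3 to 6. Embryo 3, with Btg4 at 1519.9 CPM, had Ovgp1, Lcn2, Ltf, Sprr2f and Wfdc2 at 0 and Cftr as its only counted marker. Only 29% of genes were counted in that library, and a 0 there allows up to 4.13 CPM. Of 10 cumulus and granulosa markers at most 1 was counted in any embryo, and the sum was at most 12.0 CPM. Amh, Foxl2 and Fshr were at 0 in all 7 embryos. The 10 blood and immune markers summed to at most 129 CPM, in embryo 6, from 18 counts of Csf1r, and the 10 sperm markers to at most 22.0 CPM, in embryo 7, from Prm2.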

How the data were processed

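The authors deposited raw read counts, whole numbers by gene symbol, with 1 column per embryo. The deposited log2 table could be rebuilt as quantile normalized log2 CPM, with a small offset in the log (largest difference 4.97e-14), and served as an alternative. HISAT2 2.0.5, featureCounts 1.5.0-p2 of Subread, limma and GRCm38 are named in the submitters' processing notes. Settings, annotation and strand use were not given in those sources. Per the labels' protocols, total RNA was brought to like amounts, captured by oligo-dT, amplified with SMART-Seq v4 and tagged with Nextera XT. Amplified copies carry no molecular identifiers.

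Totals ran from 139619 to 33123742 counts. Log2 CPM used TMM factors (edgeR 4.0.16, R 4.3.3) and a prior count of 2. The test of spread compared each gene's quasi-likelihood dispersion with genes of like abundance (one-sided F test, Benjamini-Hochberg at 0.05, 11810 genes), and was tested on simulated data: it found genes of raised spread where dispersion was low, but none at the dispersion of these libraries. Alternatives used DESeq2 1.42.0 and limma 3.58.1. Paralogue ratios added 0.5 to each count and were divided by exon length (GENCODE M21), with exact sign-flip tests. Both alternatives that leave out embryos by their counts were chosen after seeing the data.

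The members, gene lists and tests were chosen with earlier results of these data known. Named genes were the members, their paralogues, the 3 nearest genes by pattern, the largest and smallest SD of each pathway list, and leading markers. Defining markers at 0 and overlapping genes were named beside them.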

Additional observations from a re-analysis of the deposited data

Results flagged for a closer look

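Of 15 checks for a sample far from the others, 1 stood out: the log2 ratio of Cnot7 to Cnot8 per kb, where embryo 1 stood at 8.20 and the other embryos between -5.23 and 0.46. The gap of embryo 1 to the nearest embryo was 0.576 of the whole range, above the Dixon critical value of 0.568 for 7 samples. The ratio rests on 974 counts of Cnot7 and 1 of Cnot8. Chance flags about 1 in 20 such groups, and 15 were checked.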

How the results depend on the processing

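No paired analysis was possible because the labels put all embryos in 1 group. The test of spread called 0 genes in every alternative run except limma on the authors' log2 table, which called 2 genes, Siah2 and Zbed3, neither of them a member (members' adjusted p by limma 0.880 each). No paralogue comparison passed after adjustment, which says nothing about stability: with 1 embryo left out the smallest exact p is 0.0312 (0.219 adjusted for a lone comparison), and without embryos 5 and 6 it is 0.0625. The mean log2 ratio of Btg4 to its paralogues (-0.58) changed sign against the highest paralogue alone (1.87) and as a median (1.47), and ran from -1.65 to 1.36 when 1 embryo was left out, positive without embryo 4 (1.36) or 5 (0.32). That of Cnot7 (-0.37) changed sign with no length correction (0.77), with the longest coding transcript (0.27) and without embryos 5 and 6 (0.76), and ran from -1.80 to 0.44 when 1 embryo was left out, positive without embryo 5. That of Zfp36l2 (-2.12) changed sign against the highest paralogue alone (0.45). The cause was not tested. The mean of Pabpn1l (0.42 log2 CPM, SD 3.39) became 4.33 (SD 1.03) with all libraries brought to the lowest total. Pabpn1l had no count in embryos 3, 4, 5 and 6, each at -2.07 log2 CPM in the main run. An SD of 1.03 is too small for these embryos to have stayed at -2.07, so the value given to a 0 had risen. The mean of 4.33 therefore does not show a higher level of Pabpn1l. The same rise enters the means of other members with a 0 at that total. The means of the other 6 members moved by less than 1 SD in every alternative. In embryo 6 a count of 0 allows 21.5 CPM, so a 0 there does not separate a low level from none.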
